A study of Homo sapiens with 22 samples.

Results

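The comparison set haematopoietic progenitor cells with ectopic MYC against untreated cells that lay at a like point of the untreated culture course, in place of untreated cells of the same day. It used 12 of the 22 libraries of the series, 6 on each side, in 3 pairs of groups. Pair 1 was doxycycline-treated day 14 against untreated day 12, pair 2 was treated day 16 against untreated day 14, and pair 3 was treated day 20 against untreated day 16. Each group had 2 libraries, and the pair was a block in the fit. All cells came from 1 line of human embryonic stem cells, H1, which were differentiated into haematopoietic progenitors. The groups labelled DOX received doxycycline, which drives an ectopic copy of MYC, and the groups labelled UT received none. The day on which doxycycline was added is not given in the sources used here, and no group had doxycycline without ectopic MYC. The treated libraries were 2, 2 and 4 days older than their partners, so longer culture, doxycycline and ectopic MYC cannot be told apart in any difference below. Nothing in the labels ties the 2 replicates of a group to separate cultures, and a p-value below reflects the scatter of these libraries alone, possibly a technical one.

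MYC is a transcription factor that binds DNA together with its partner MAX, most often at the hexamer CACGTG, the E-box. It is known for raising the output of genes for ribosome assembly, nucleotide and amino acid supply and cell division. In blood formation its level is high in dividing progenitors and falls as cells mature. Haematopoietic progenitors made from pluripotent cells arise from endothelium and go on to erythroid, megakaryocytic and myeloid cells, so a bulk library of a culture is a mixture. Fewer cells of a type and less RNA per cell cannot be told apart in such libraries.

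The pairs were chosen on expression in these libraries, and the values that chose them are given as a description only. Position was measured for each library in log2 CPM along a line. The line ran from the mean of UT day 10 (position 0) to the mean of UT day 18 (position 1). CPM stands for read counts scaled to library totals that were adjusted by trimmed mean of M values (TMM). UT day 12, day 14 and day 16 lay at 0.112, 0.423 and 0.743. Their partners DOX day 14, day 16 and day 20 lay at 0.172, 0.349 and 0.739. DOX minus UT was thus 0.060 in pair 1, -0.074 in pair 2 and -0.005 in pair 3, while against UT of equal age it was -0.250 for day 14, -0.395 for day 16 and -0.224 for day 20. The choice left DOX slightly ahead in pair 1 and slightly behind in pair 2. Of the groups not used, DOX day 18 at 0.571 lay between UT day 14 and UT day 16.

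**Figure D1:**
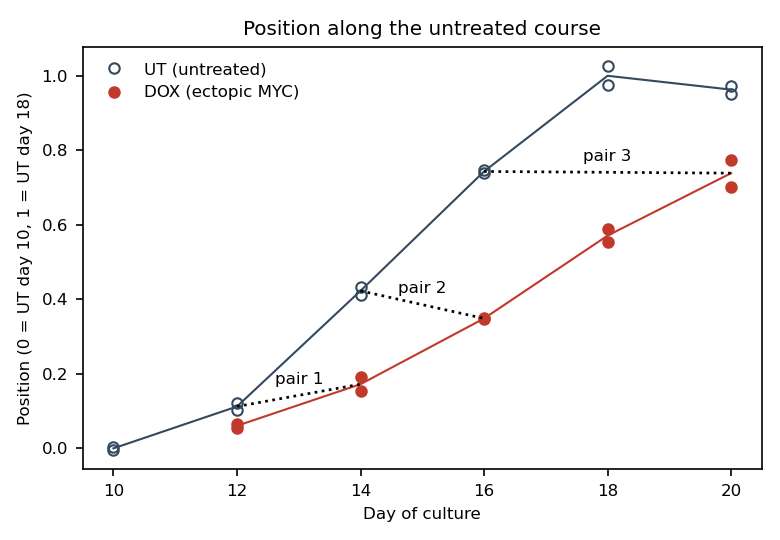
Position of each of the 22 libraries (points; lines join group means) by day of culture, where 0 is the mean of UT day 10 and 1 the mean of UT day 18. Dotted lines link the 3 pairs, whose group means differ by 0.060, -0.074 and -0.005, less than on the same day (-0.250, -0.395 and -0.224).

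The 12 libraries held 31990900 to 47518926 estimated counts. Genes of the mitochondrial genome took 11.1% of counts in DOX day 14 and 10.6% in UT day 12. They took 20.2% in DOX day 16 and 13.7% ± 5.30 (SD, n = 2) in UT day 14, and 57.0% in DOX day 20 and 54.7% in UT day 16. Same-day shares differed by 17.6 percentage points on average, with DOX lower, and the matched shares by 3.14 points, with DOX higher. CD34, the surface marker of progenitors, was at 5.09 to 86.0 CPM in the 12 libraries. Summed erythroid genes were at 754 to 3617 CPM and primary granule genes at 1411 to 4066 CPM. The libraries labelled progenitor cells thus held RNA of several lineages, and whether it came from the same cells was not tested. One library stood apart in matrix genes: COL4A1, a basement membrane collagen, was at 48.2 CPM in UT day 16 replicate 2 and at 8.04 CPM or less in the 11 others. All CPM levels, here and below, are after scaling by TMM.

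MYC (ENSG00000136997.21, chromosome 8) is the gene that was switched on, and its row in the table does not separate the endogenous from the ectopic copy. In pair 1 it was at 164 and 183 CPM in DOX and 126 and 121 CPM in UT. In pair 2 it was at 133 and 84.4 CPM in DOX and 88.7 and 58.0 CPM in UT. In pair 3 it was at 49.6 and 28.9 CPM in DOX and 59.8 and 46.8 CPM in UT. The libraries were separate in pair 1 and overlapped in pairs 2 and 3. Averaged over the pairs the log2 fold change was 0.22 (SE 0.19), which did not pass the test (edgeR quasi-likelihood test, Benjamini-Hochberg adjusted p = 0.47). By pair it was 0.49, 0.56 and -0.44 (F test of a difference among pairs, adjusted p = 0.16), and without pair 3 the average was 0.53 (adjusted p = 0.041). Against UT of the same day, the same DOX libraries gave 0.87 (adjusted p = 0.0039). At matched position total MYC RNA was thus not shown to differ when all 3 pairs were averaged.

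Of 20115 genes tested, 4569 (22.7%) passed an adjusted p under 0.05 in the matched comparison, 2366 (11.8%) higher in DOX and 2203 (11%) lower. At a difference of at least 2-fold, 989 (4.92%) were called, 229 (1.14%) higher and 760 (3.78%) lower. Against UT of the same day, 6874 genes (34.2%) were called, 2663 (13.2%) of them by at least 2-fold. The matched and same-day contrasts share the DOX libraries and 4 of the 6 UT libraries, and their values are set side by side only. Same-day calls of at least 2-fold were 5.16% higher and 8.08% lower. Counts of list members below are to be read against 11.8% higher and 11% lower when matched. On the same day these shares over all genes were 18.5% and 15.7%. Taken singly, pair 1 gave 3473 calls (17.3%; 9.41% higher and 7.86% lower), pair 2 gave 2183 (10.9%; 4.98% and 5.87%) and pair 3 gave 1413 (7.02%; 2.9% and 4.13%). Replicates also lay further apart in pair 3. Their root mean square distance in log2 CPM was 0.505 (UT) and 0.530 (DOX) in pair 1. It was 0.673 and 0.628 in pair 2, and 0.978 and 1.133 in pair 3. The part of this scatter in the fewer calls was not tested. In 3206 genes (15.9%) the libraries of DOX and UT did not overlap in any pair and lay in 1 direction, 1641 (8.16%) higher and 1565 (7.78%) lower. Because the pairs were chosen for likeness, these counts describe the contrast. How many genes had all 6 DOX libraries on 1 side of all 6 UT libraries was not counted. Where such a separation is given below, it describes single genes, most of them picked for their difference. With library sizes in place of TMM the median of all genes moved from 0.00 to -0.11 on the log2 scale, and the split became 1059 higher and 2991 lower.

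The classes of the untreated course show what the matching changed. They came from UT day 18 and day 20 against UT day 10, libraries that are in none of the pairs, although UT day 20 is in the same-day contrast. The 5912 genes that rose along the course had a median log2 fold change of -0.02 in the matched comparison, with 634 higher and 769 lower, and of -0.60 on the same day, with 39 higher and 2768 lower. For the 7635 genes that fell along the course the median was 0.03 matched, with 1202 higher and 918 lower, and 0.52 on the same day, with 3365 higher and 63 lower. Among the 6568 genes not called along the course, 530 were higher and 516 lower when matched, and 310 higher and 329 lower on the same day. Genes that rise and genes that fall were thus each found on both sides of the matched comparison; the choice of pairs by overall position set this balance, and nothing is read from it.

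The largest matched differences are given for protein-coding genes with a mean log2 CPM of at least 1 and the same sign in all 3 pairs. Genes below that level could have large differences as well, as FLT3 and CXCR1 did (log2 fold change 2.64 and -4.07), on few counts. C11orf87 (ENSG00000185742.7, chromosome 11, 109422120 to 109429114, plus strand, GRCh38), a gene of no well-described role in blood, was at 49.6 and 56.5 CPM in DOX against 1.45 and 2.01 in UT in pair 1. Pair 2 had 51.0 and 65.3 CPM against 0.952 and 1.27, and pair 3 had 23.2 and 29.9 CPM against 0.0443 and 0.479. All 6 DOX libraries lay above all 6 UT libraries, 45.5-fold on average (log2 fold change 5.51, SE 0.25, adjusted p = 4.1e-08). PTX3, a secreted pattern-recognition protein, lay at 5.41, 17.4 and 22.8 CPM (lowest, median, highest) in DOX and at 0.399, 1.22 and 1.36 in UT, with log2 fold change 3.85 (SE 0.25). SIPA1L2, a GTPase-activating protein, had a DOX median of 12.3 CPM and a UT median of 2.56, 5.45-fold higher. VWDE and MGAT5B, the latter a glycosyltransferase, were 4.32-fold and 4.07-fold higher, VWDE with adjusted p = 0.15 without pair 2. The other 7 of the 12 highest genes by this rule were CHAC1, ALDH1L2, ASS1, ASNS, STC2, CDKN2A and PSAT1, and all of these but CDKN2A belong to amino acid and one-carbon metabolism or to the response to amino acid shortage.

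**Figure D2:**
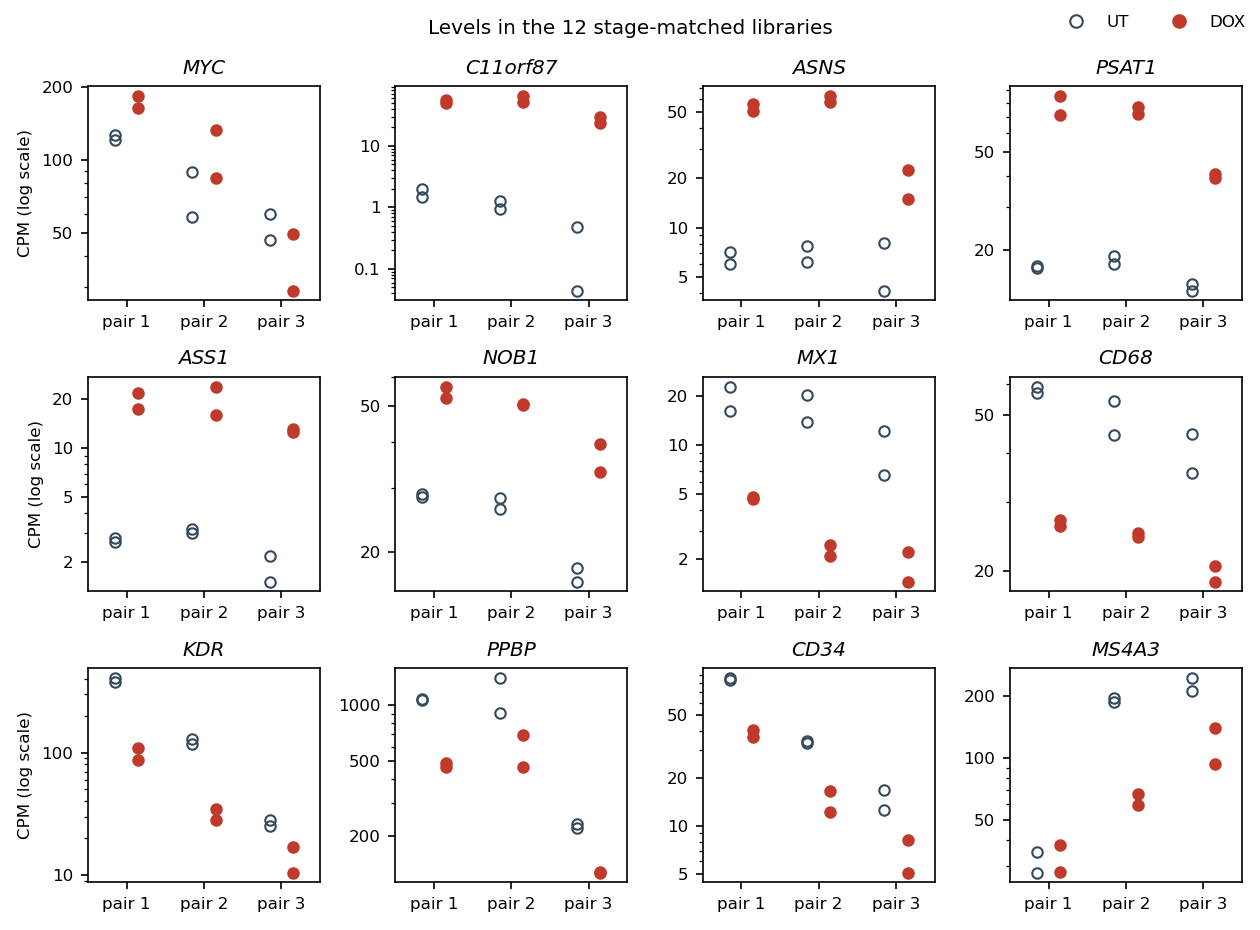
Level of 12 genes in each of the 12 stage-matched libraries, in TMM-scaled CPM on log axes, with UT as open and DOX as filled circles and 2 libraries per group. In C11orf87, ASNS, PSAT1, ASS1 and NOB1 every DOX point lies above every UT point; in MX1 and CD68 every DOX point lies below; MYC overlaps in pairs 2 and 3.

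Most genes of the amino acid response list were higher in DOX. This response is driven by the transcription factor ATF4, whose translation rises when amino acids run short. Of 18 members, 14 rose and none fell, with a median log2 fold change of 0.71 (0.98, 0.83 and 0.68 in pairs 1 to 3; 6 rose against a 1.5-fold change), against a median of 0.00 over all genes. In the single pairs 13, 10 and 9 were called higher and none lower. ASNS (ENSG00000070669.17, chromosome 7, 97852118 to 97872542, minus strand, GRCh38), asparagine synthetase, was at 56.1 and 50.8 CPM in DOX against 6.00 and 7.07 in UT in pair 1. In pair 2 it was at 57.2 and 62.7 against 6.22 and 7.78 CPM, and in pair 3 at 14.9 and 22.4 against 8.03 and 4.15 CPM. The groups were separate in each pair and over all 12 libraries (log2 fold change 2.63, SE 0.24, adjusted p = 1.3e-05), and the difference was smaller in pair 3 (1.62) than in pairs 1 and 2 (3.03 and 3.10; F test among pairs, adjusted p = 0.033). CHAC1, which breaks down glutathione, was 9.01-fold higher (DOX median 3.70 CPM, UT median 0.519), and STC2, a secreted glycoprotein, 5.93-fold higher. CTH, PYCR1 and PCK2, enzymes of cysteine and proline synthesis and of phosphoenolpyruvate production, had log2 fold changes of 1.69, 1.21 and 1.20. ATF4 itself was at 318, 623 and 932 CPM in DOX and 209, 372 and 748 CPM in UT (log2 fold change 0.57, SE 0.10, adjusted p = 9.1e-04). On the same day its value was -0.08 (adjusted p = 0.64). DDIT3, a pro-death factor of the same pathway, was at -0.14 (adjusted p = 0.43) and did not move with the list.

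The octamer family TGATGNAA (N any base, either strand), the core that ATF4 binds with C/EBP partners, was searched in RefSeq promoters (250 bases before to 50 after a start, GRCh38.p14) and was chosen after the values were seen. Promoters were found for 11610 of the 14808 protein-coding genes tested, and 2.92% held a match. Among the amino acid response genes 4 of 16 did (25%), and among cytosolic tRNA synthetases 7 of 16 (43.8%). Over all called genes the match was no more frequent on the higher side: it was in 3.36% of promoters of genes called higher and 3.54% of those called lower, and at a difference of at least 2-fold in 1.72% and 5.22%. Interferon-stimulated genes, which were lower, had it in 2 of 19 (10.5%), and MX1 held a match in 1 of its 3 promoters in the table. STC2 and PSAT1, which differed by more than GARS1 and IARS1, hold no match. The stretches that follow are from promoters of 4 genes of the amino acid response and tRNA synthetase lists that were higher in DOX. They are shown because each carries such a match, in capitals, with its flanks.
ASNS, chr7:97872458-97872487, minus strand: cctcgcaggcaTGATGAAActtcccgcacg
CHAC1, chr15:40953251-40953280, plus strand: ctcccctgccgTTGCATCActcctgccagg
GARS1, chr7:30594834-30594863, plus strand: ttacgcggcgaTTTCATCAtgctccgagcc
IARS1, chr9:92293698-92293721, minus strand: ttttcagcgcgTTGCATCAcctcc
In CHAC1, GARS1 and IARS1 the match is the reverse complement. It begins 68, 209, 33 and 13 bases before the RefSeq start used, in the order printed. Each stretch overlaps an exon of at least 2 annotated transcripts of its gene in GENCODE 29. A match is a description of the letters in the window and says nothing of binding in these cells.

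Serine, glycine and folate enzymes, which make one-carbon units for nucleotide synthesis, moved with this response. Of 16 measured members of 17, 11 rose and none fell (median 0.55; 0.78, 0.56 and 0.31 by pair). PSAT1, an enzyme of serine synthesis, was at 85.3 and 70.9 CPM in DOX against 17.1 and 16.8 in UT in pair 1. Pair 2 had 72.0 and 76.5 against 17.5 and 18.9 CPM, and pair 3 had 40.7 and 39.3 against 14.5 and 13.6 CPM. It was 3.80-fold higher over the pairs (adjusted p = 3.7e-07), with no overlap of libraries. ALDH1L2, a mitochondrial folate enzyme, was 8.87-fold higher (SE of the log2 value 0.21). PHGDH, which opens serine synthesis, and SHMT2, which splits serine for folate in mitochondria, had log2 fold changes of 1.14 and 0.89. ASS1, which joins citrulline and aspartate on the way to arginine, was 6.84-fold higher, at 12.6, 16.7 and 23.9 CPM in DOX and 1.52, 2.73 and 3.21 CPM in UT (adjusted p = 4.1e-08).

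Amino acid transporters did not move as a block. Of 17 measured, 9 rose and 3 fell (median 0.50), and 1 was left among the lower calls without UT day 12 replicate 1, UT day 14 replicate 1, or either library of UT day 16, DOX day 16 or DOX day 20. SLC7A11, the cystine importer, was 2.32-fold higher (DOX median 20.5 CPM, UT median 8.58) and SLC6A9, a glycine transporter, 3.14-fold higher. SLC3A2, the shared heavy chain of several exchangers, had log2 fold change 0.68. SLC7A7, which exports cationic amino acids in macrophages and epithelium, was 2.04-fold lower. Charging enzymes moved in 1 direction: 18 of 20 cytosolic tRNA synthetases rose and none fell (median 0.52; 0.54, 0.63 and 0.39 by pair). GARS1, for glycine, lay at 160, 184 and 250 CPM in DOX and at 98.1, 107 and 110 in UT, without overlap (log2 fold change 0.87, SE 0.09). IARS1 and LARS1, for isoleucine and leucine, had 0.81 and 0.80.

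Lists of known growth targets of MYC were higher in DOX at matched position as well, by small amounts. They were written with earlier results of these data known, so their direction is not independent evidence. Among 32 MYC growth targets 26 rose and none fell (median 0.49; 0.69, 0.46 and 0.30 by pair), although MYC itself was not called. Ribosome biogenesis factors followed, with 40 of 45 higher and none lower (0.50; 0.50, 0.52 and 0.38 by pair). These lists share members, BOP1, FBL, NOP16 and NOP56 among them, so their counts are not separate results. The growth targets also include HSPD1 and SLC3A2, which are described under other lists. NOB1, a nuclease that finishes small-subunit RNA, was at 56.6 and 52.8 CPM in DOX against 28.3 and 28.9 in UT in pair 1. It was at 50.8 and 50.4 against 28.2 and 26.2 CPM in pair 2 and at 39.5 and 33.2 against 18.1 and 16.6 CPM in pair 3. Every DOX library lay above every UT library (1.95-fold, adjusted p = 4.8e-06). TRAP1, a mitochondrial chaperone, was 2.06-fold higher, at 68.4, 112 and 147 CPM against 33.5, 53.8 and 67.5 CPM. RRS1 and WDR12, assembly factors of the large subunit, had log2 fold changes of 0.68 and 0.67. Same-day values had 31 of the 45 biogenesis factors higher (median 0.59). The matched counts moved with the setting: 17 growth targets were called with library sizes alone and 14 without pair 1, 26 biogenesis factors without pair 1, and against a 1.5-fold change 1 of each list. The medians lay between 0.38 and 0.53 in these and the other fits without a pair for biogenesis, and between 0.38 and 0.59 for the growth targets.

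Cytosolic ribosomal proteins differed between the contrasts. These mRNAs rose along the untreated course (median 0.49), and at matched position 32 of 36 were higher in DOX and none lower, with a median of 0.39 (0.62, 0.38 and 0.20 by pair). Same-day values had 11 higher, with a median of 0.18. RPL12, of the large subunit, lay at 903, 1630 and 2363 CPM in DOX and at 521, 989 and 1708 CPM in UT (log2 fold change 0.67, SE 0.09). The count is sensitive to single libraries and scaling: it was 18 and 20 without UT day 12 replicate 1 or 2, 5 without pair 1 and 7 with library sizes alone, with a median above 0 in each. Genes of the mitochondrial genome changed sign between the contrasts, which the ribosomal proteins did not. Of 13, 6 were higher and none lower when matched (median 0.53) and 10 were lower on the same day (median -1.21). MT-ND6, a complex I subunit, was 2.21-fold higher when matched. With DOX day 18 in place of day 20, 1 of the 13 was called (median 0.075). In that pairing DOX day 18 minus UT day 16 was -0.172 in position.

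Nucleotide synthesis and mitochondrial protein handling rose as the growth lists did, with HSPD1 on both the growth target and the mitochondrial list. Of 23 purine and pyrimidine enzymes 20 were higher and none lower (median 0.49; 0.67, 0.54 and 0.34 by pair). ATIC, which ends purine ring assembly, was 1.61-fold higher, and IMPDH2, which commits purines to guanine nucleotides, 1.58-fold, at 139, 206 and 265 CPM in DOX and 90.5, 131 and 158 CPM in UT. With library sizes alone 13 were called, without pair 1 11 and without pair 2 12. Of 23 genes for mitochondrial import and chaperones 17 rose (median 0.43; 10 with library sizes alone, 7 without pair 1), HSPD1, the matrix chaperonin, by 1.53-fold and LONP1, a matrix protease, by 1.56-fold. Nuclear-encoded subunits of oxidative phosphorylation rose less: 5 of 26 were called (median 0.20), and the median was 0.62 in pair 1, 0.15 in pair 2 and -0.04 in pair 3. Without pair 1 none was called, and without single libraries 1 to 9 were, 1 without any library of pair 1 or DOX day 16 replicate 2 and 9 without DOX day 20 replicate 2. Glycolysis genes showed no common direction, with 3 higher, 2 lower and 19 uncalled of 24 (median -0.11). SLC16A1, a lactate exporter, rose 1.58-fold while SLC2A3, a glucose importer, was 1.68-fold lower, at 64.5, 212 and 388 CPM in DOX and 90.8, 406 and 713 CPM in UT. Of 25 cholesterol and fatty acid genes, 4 rose and none fell, against 15 and 1 on the same day. Over all genes 11.8% were higher when matched and 18.5% on the same day. The matched higher counts for oxidative phosphorylation, glycolysis and cholesterol genes were thus not far from the share over all genes.

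The hexamer CACGTG was present in 12.2% of the promoters of tested protein-coding genes, 15.8% of those of genes called higher and 9.3% of those called lower. Of genes that differed by at least 2-fold it was in 19.8% of the higher and 6.8% of the lower. Among MYC growth targets 13 of 28 promoters held it (46.4%) and among ribosome biogenesis factors 16 of 39 (41%). Other lists that were higher lay near or below the share of all genes, with 2 of 16 amino acid response genes (12.5%) and 1 of 16 tRNA synthetases (6.25%). Examples from members described above carry the hexamer in capitals, picked because they hold it and were higher in DOX in all 3 pairs.
ASS1, chr9:130444878-130444907, plus strand: gcgcgtccccgcCACGTGtccccggtcacc
ATIC, chr2:215312001-215312030, plus strand: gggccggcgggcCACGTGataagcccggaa
HSPD1, chr2:197500345-197500374, minus strand: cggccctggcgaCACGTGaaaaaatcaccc
LONP1, chr19:5720178-5720207, minus strand: cgcgccgggcgtCACGTGcgtttcgcggcg
The hexamers begin 71, 46, 88 and 49 bases before the RefSeq start used. The promoter of FLT3, described below, holds one as well, and that of CTSA, a lysosomal protease that was 1.44-fold lower in DOX, holds 2. Among the 12 lowest protein-coding genes by the rule given above, UPB1 holds 2 and PLCH1 holds 1. BHLHE40 and SLC7A7, also lower in DOX, each hold 1, while CHAC1, ASNS, STC2 and PSAT1, among the highest, hold none.

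Cell cycle genes were higher in DOX, with the largest medians in pair 1, and not in DOX day 12 against UT day 10, where 5 of 32 DNA replication genes were lower and none higher (median -0.40) and the mitosis genes had a median of -0.26 with none called. Of 32 DNA replication genes 14 rose and none fell (median 0.29), with pair medians of 0.64, 0.21 and 0.10. Of 29 mitosis genes 17 rose and none fell (median 0.41), with pair medians of 0.77, 0.36 and 0.14. CCNA2, cyclin A2, was at 115 and 120 CPM in DOX against 57.0 and 58.7 in UT in pair 1. It was at 112 and 139 against 80.2 and 92.6 CPM in pair 2 and at 80.9 and 66.9 against 63.1 and 59.7 CPM in pair 3. DOX was above UT in each pair, by an amount that differed among pairs (F test, adjusted p = 0.042). ORC6, of the origin recognition complex, and PRC1, of the mitotic spindle, had log2 fold changes of 0.65 and 0.61. Without pair 1, 1 replication gene and 4 mitosis genes were called, and with library sizes alone 5 and 7. The replication count was 9 without UT day 12 replicate 1, UT day 12 replicate 2 or DOX day 14 replicate 2, and the mitosis count 11 without UT day 12 replicate 1.

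The neighbouring inhibitors of cyclin-dependent kinases on chromosome 9 moved in opposite directions. CDKN2A, which encodes p16 and p14ARF, lay at 2.27, 5.08 and 7.2 CPM in DOX and at 0.358, 1.88 and 2.08 CPM in UT, 3.86-fold higher with no overlap (adjusted p = 3.8e-05). CDKN2B, which encodes p15, lay at 0.726, 0.923 and 2.39 CPM in DOX and 2.30, 4.11 and 5.51 CPM in UT. In each pair its DOX libraries were below its UT libraries, 3.25-fold on average (adjusted p = 2.3e-04). Of the 20 inhibitors and p53 targets, 3 rose and 4 fell (2 without DOX day 14 replicate 2), and CDKN1A, which encodes p21, was at -0.13 (adjusted p = 0.40).

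The remaining members of the MYC network were lower or uncalled. Of 13 partners, antagonists and paralogues 3 fell and none rose. MYCN, the paralogue active in early embryonic cells, was 2.29-fold lower (DOX 2.57, 5.34 and 8.37 CPM, UT 4.31, 11.3 and 30.1 CPM), and it was lower also in DOX day 12 against UT day 10 (log2 fold change -1.17, adjusted p = 0.023). MXD1, a MAX partner that opposes MYC, was 1.75-fold lower and MAX 1.48-fold lower. In the same-day fit MYCN and MAX had values above 0 (0.42 and 0.13), neither of which passed the test.

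Interferon-stimulated genes were lower in DOX at matched position, while along the untreated course their median change was 0.01 from day 10 to days 18 and 20 and -0.62 from day 12 to day 16, the span of the UT partners. These genes are induced by interferon and encode antiviral proteins. Of 27 members 20 fell and none rose, with a median of -0.94 (-0.99, -1.08 and -0.87 by pair). Without each pair in turn 15 to 24 fell, and against a 1.5-fold change 11 did. MX1 (ENSG00000157601.14, chromosome 21, 41420304 to 41459214, plus strand, GRCh38), an antiviral GTPase, was at 4.81 and 4.67 CPM in DOX against 22.9 and 16.2 in UT in pair 1. In pair 2 it was at 2.46 and 2.09 against 14.0 and 20.3 CPM and in pair 3 at 1.46 and 2.21 against 6.61 and 12.2 CPM. All DOX libraries lay below all UT libraries (log2 fold change -2.43, SE 0.20, adjusted p = 6.0e-06). IRF7, which amplifies the interferon response, lay at 3.85, 5.36 and 7.77 CPM in DOX and 9.81, 11.9 and 14.8 in UT, 2.25-fold lower. IFIT1, OAS1, XAF1 and IRF9 had log2 fold changes of -1.56, -1.24, -2.11 and -0.94. IFITM1 and IFITM3, membrane proteins that restrict viral entry, were at -0.07 and 0.21 and did not pass the test. In DOX day 12 against UT day 10, 1 of the 27 genes was higher and none lower (median 0.27), and MX1 was at 0.58 (adjusted p = 0.82). On the same day 12 were lower and 3 higher (median -0.91).

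**Figure D3:**
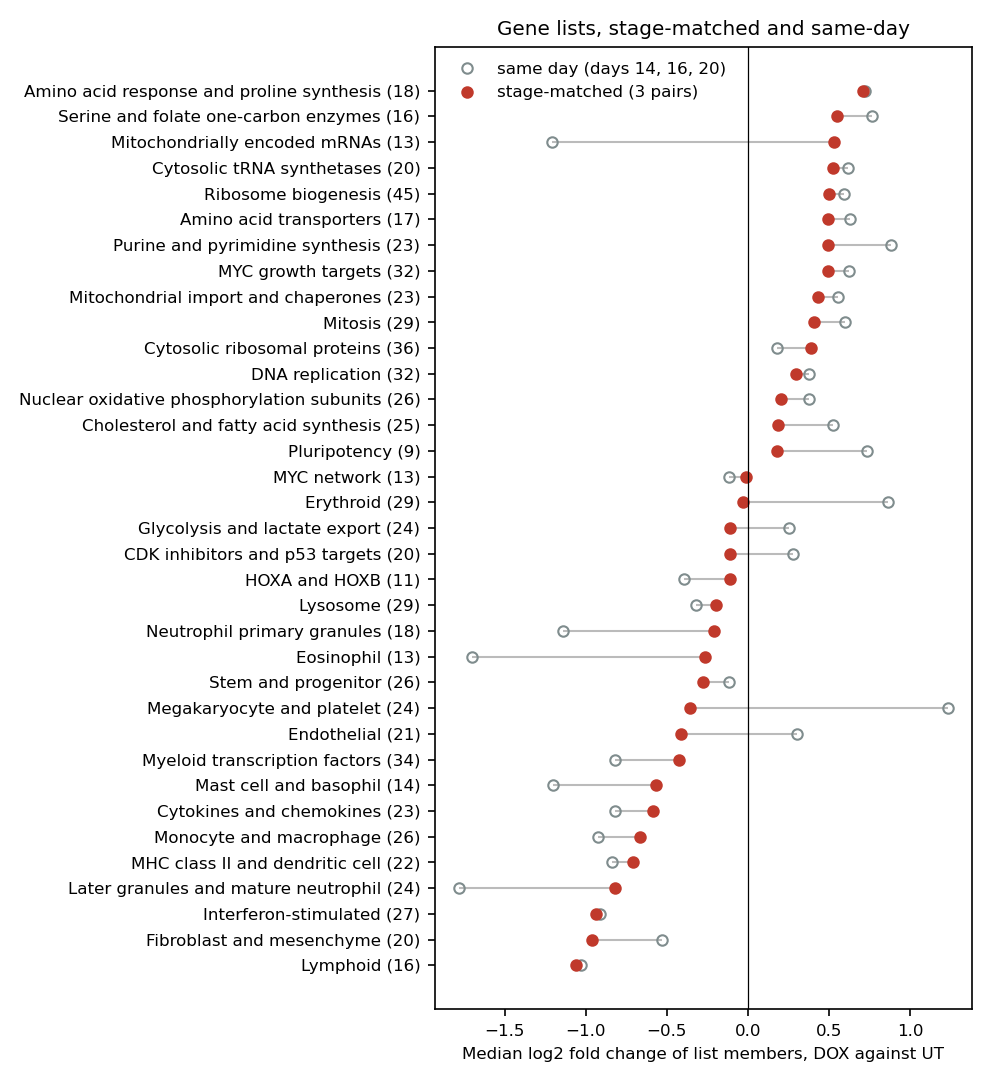
Median log2 fold change of DOX against UT over the measured members of each gene list (number in parentheses) in the stage-matched comparison (filled) and on the same day (open). Interferon-stimulated genes lie at -0.94 and -0.91, while megakaryocyte and platelet genes lie at -0.36 when matched and 1.23 on the same day.

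Monocyte and macrophage genes were also lower. Of 26 measured 13 fell and 1 rose (median -0.66; -0.36, -1.10 and -0.91 by pair), and their summed level was 246 to 382 CPM in DOX and 479 to 615 CPM in UT, without overlap. CD68, a lysosomal glycoprotein of macrophages, was at 27.1 and 26.1 CPM in DOX against 57.0 and 59.1 in UT in pair 1. Pair 2 had 25.1 and 24.5 against 54.2 and 44.6 CPM and pair 3 had 18.8 and 20.7 against 35.7 and 44.8 CPM. The log2 fold change was -1.13, -0.99 and -1.03 by pair, and all DOX libraries lay below all UT libraries (adjusted p = 4.9e-06). CSF1R, the receptor for macrophage colony-stimulating factor, and ITGAM, the CD11b integrin chain, had -0.97 and -1.03. FABP4, a fatty acid carrier, was the member that rose (1.08). Lysosomal genes in general differed little, with 6 of 29 lower and 1 higher (median -0.20). The interferon genes had summed levels of 157 to 295 CPM in DOX and 258 to 440 CPM in UT, and whether they and the macrophage genes moved in the same cells was not tested.

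Granulocytic genes depended on the pair. Of 18 primary granule genes of neutrophils 3 fell and none rose on average (5 fell without UT day 12 replicate 2 or DOX day 14 replicate 1), with pair medians of 0.71, -0.51 and -0.62. The averaged lower count was not far above the 11% of all genes that were lower. These genes rose steeply along the untreated course (median 6.32), and the pairs differed in position by 0.060, -0.074 and -0.005. Of the 18, 13 passed the test of a difference among pairs, against 3.54% of all genes. The part of the remaining difference in position was not tested. MS4A3, a marker of granulocyte-monocyte progenitors, was at 37.8 and 28.0 CPM in DOX against 35.1 and 27.9 in UT in pair 1. It was at 67.4 and 59.7 against 195 and 187 CPM in pair 2 and at 140 and 93.6 against 245 and 212 CPM in pair 3. MPO, myeloperoxidase, had -0.03, -0.91 and -0.66 by pair. Genes of later granules and mature neutrophils were lower, 13 of 24 with 1 higher (median -0.82; -0.31, -1.38 and -0.66 by pair), and without pair 2 the lower count was 6. Of 13 eosinophil genes 5 fell, with pair medians of 0.83, -0.95 and -0.71. PTGDR2, a prostaglandin receptor of eosinophils and basophils, was lower in every pair (-1.23, -1.38 and -1.15), 2.38-fold on average. Of 14 mast cell and basophil genes 7 fell and 1 rose. On the same day 15, 20, 13 and 10 members of these lists were lower.

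Transcription factors of the myeloid lineage were lower in part. Of 34 listed, 16 fell and 1 rose (median -0.42; -0.11, -0.85 and -0.36 by pair). BHLHE40, a repressor induced by many signals, lay at 18.2, 26.7 and 37.0 CPM in DOX and at 50.6, 57.6 and 70.1 CPM in UT, 2.19-fold lower without overlap. KLF2 and ID1, regulators that answer flow and bone morphogenetic signals, had -1.15 and -1.01, that of KLF2 not passing without pair 2 (adjusted p = 0.076). SPI1, which encodes PU.1, was at -0.34 (adjusted p = 0.020), and its call was lost without UT day 14 replicate 1, DOX day 14 replicate 2 or either DOX day 16 library. Without pair 2 the lower count was 7. IL3RA, the interleukin-3 receptor chain, was 2.37-fold lower, with no overlap. Antigen presentation genes of class II and dendritic cell genes differed among pairs in 15 of 22 cases. On average 1 rose and 5 fell (8 fell without UT day 12 replicate 2, and 3 without DOX day 20 replicate 2 or any library of UT day 14, UT day 16 or DOX day 16), with pair medians of 0.60, -1.08 and -1.69. Over all genes 11.8% were higher and 11% lower. FLT3, a receptor of early progenitors and dendritic cells, was the member that rose on average. It was at 0.795, 1.41 and 4.64 CPM in DOX and 0.0443, 0.271 and 0.401 CPM in UT, 437 counts against 81 over 6 libraries each (6.23-fold, adjusted p = 0.0011).

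Platelet and endothelial genes had medians of opposite sign in the matched and the same-day contrast. Both groups fell along the untreated course (medians -3.64 and -2.10). Of 24 megakaryocyte and platelet genes 9 fell and none rose when matched (median -0.36), while 19 were higher and 1 lower on the same day (median 1.23). PPBP, a platelet chemokine precursor, was at 468 and 492 CPM in DOX against 1058 and 1070 in UT in pair 1. In pair 2 it was at 466 and 689 against 908 and 1399 CPM and in pair 3 at 128 and 127 against 221 and 230 CPM. DOX lay below UT in each pair (1.99-fold, adjusted p = 1.1e-04), and in DOX day 12 against UT day 10 it lay above (log2 fold change 1.48, adjusted p = 3.9e-04). The list is carried by pair 1, with pair medians of -0.89, -0.04 and -0.14. With a 2-day lag throughout, 3 platelet genes were higher and 1 lower (median 0.31), and with DOX day 18 in place of day 20 1 was lower.

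Of 21 endothelial genes 9 fell and 1 rose when matched (median -0.42; -0.64, -0.45 and -0.20 by pair). On the same day 5 were higher and 1 lower (median 0.30), against 18.5% and 15.7% of all genes called. The same-day higher count was thus not far above the share over all genes. With a 2-day lag throughout the lower count went from 9 to 4, and with DOX day 18 in place of day 20 it was 5. The summed level was 230 to 631 CPM in DOX and 271 to 1206 CPM in UT. KDR, the main receptor for vascular endothelial growth factor, was at 87.5 and 109 CPM in DOX against 407 and 373 in UT in pair 1. In pair 2 it was at 28.4 and 35.0 against 128 and 117 CPM and in pair 3 at 17.1 and 10.5 against 28.2 and 25.4 CPM. It was 3.15-fold lower over the pairs (adjusted p = 2.9e-05), and on the same day it was at 0.54 (adjusted p = 0.24). TEK and FLT1, further endothelial receptors, had -1.55 and -1.23, and PECAM1, shared with platelets and leukocytes, had -0.05. CD34 lay at 40.4 and 36.2 CPM in DOX against 83.6 and 86.0 in UT in pair 1, at 16.6 and 12.3 against 34.3 and 33.5 CPM in pair 2, and at 8.23 and 5.09 against 16.8 and 12.6 CPM in pair 3. The difference was alike in each pair (-1.15, -1.22 and -1.13; 2.25-fold lower, adjusted p = 2.4e-05), and in DOX day 12 against UT day 10 it was -0.40 (adjusted p = 0.85). The list of stem and progenitor genes as a whole had 3 higher and 5 lower of 26, the latter 3 without UT day 12 replicate 1 or DOX day 16 replicate 1. These counts were not far from the 11.8% higher and 11% lower of all genes.

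Collagens and other matrix genes were lower with a caveat of 1 library. COL4A1 and COL4A2, chains of basement membrane collagen, had log2 fold changes of -2.16 and -2.35. Without UT day 16 replicate 2 they were -1.35 and -1.61 (adjusted p = 0.0042 and 9.8e-04). SPARC, a matrix glycoprotein, went from -1.0 to -0.52, and its call was lost without UT day 14 replicate 1 or either DOX day 20 library. Of 20 fibroblast and mesenchyme genes 4 fell (2 to 8 when single libraries were left out, 8 without UT day 16 replicate 1 and 2 without any library of pair 1 or DOX day 20), with summed levels of 86.9 to 130 CPM in DOX and 68.7 to 1008 CPM in UT, the highest in that library. PLXNA4, a semaphorin receptor, and IRX3, a homeobox factor, did not rest on it (-2.62 and -2.30 without it). IRX3 was at 1.46, 3.10 and 3.55 CPM in DOX and 12.3, 14.1 and 16.4 CPM in UT, 5.2-fold lower. SLITRK6 (-3.15) was at 11.4 and 11.8 CPM in UT day 12 and below 1 CPM in the other 10 libraries, so it rests on pair 1 (without it, adjusted p = 0.25).

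Erythroid genes split. Of 29 measured 7 rose and 8 fell (median -0.03), while on the same day 16 rose and 2 fell (median 0.86). Among those that fell, the globins HBD, HBZ and HBE1 had -1.09, -1.07 and -0.91 and ALAS2, an enzyme of haem synthesis, had -0.88. SLC4A1, the anion exchanger of the red cell membrane, had -1.81 (adjusted p = 0.033), which did not pass without pair 1 (-0.82), without pair 3 or without any of 6 single libraries, both of UT day 12 and of DOX day 14, UT day 16 replicate 1 and DOX day 16 replicate 2. Among those that rose, SPTB, of the membrane skeleton, had 1.25, and KLF1, the master factor of erythroid genes, had 0.59, so genes of the membrane lay on both sides. HEMGN, a nuclear protein of erythroid precursors, was at 81.3 and 94.4 CPM in DOX against 37.5 and 41.7 in UT in pair 1. It was at 50.4 and 75.5 against 16.0 and 20.8 CPM in pair 2 and at 14.4 and 9.45 against 1.95 and 4.79 CPM in pair 3. DOX was above UT in each pair (2.94-fold, adjusted p = 9.8e-05). Without UT day 14 replicate 1 or 2 the higher count was 4. With DOX day 18 in place of day 20, 8 erythroid genes rose and none fell. Haemoglobin genes have near-identical neighbours, so the division of reads between HBA1 and HBA2 and between HBG1 and HBG2 is uncertain.

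Of 16 lymphoid genes measured of 24, 7 fell and none rose (median -1.06; 3 without pair 1 or pair 2), at summed levels of 30.5 to 57.2 CPM in DOX and 38.3 to 123 CPM in UT; several had few counts, such as CD3D with 5 counts in DOX and 57 in UT. Of 23 cytokine and chemokine genes 4 fell (8 without UT day 16 replicate 2, 7 without DOX day 20 replicate 1), CXCL1, a neutrophil attractant, by 2.37-fold. Of 11 HOXA and HOXB genes 2 fell, and of 9 pluripotency genes 1 rose and 1 fell. The cytokine, HOX and pluripotency counts were not far from the shares over all genes, 11.8% higher and 11% lower.

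DOX day 12 against UT day 10, with a lag of 2 days and a position difference of 0.061, shares no library with the 3 pairs. In this contrast 293 genes (1.46%) were called, 250 (1.24%) higher and 43 (0.214%) lower. Without single libraries 79 to 152 were, 79 without UT day 10 replicate 2, 119 without DOX day 12 replicate 1, 121 without UT day 10 replicate 1 and 152 without DOX day 12 replicate 2. Of the 2366 genes higher in the matched comparison 1545 (65.3%) had a value above 0 there, against 49.3% of all genes, and of the 229 higher by at least 2-fold 183 (79.9%) did. Of these 229, 22 were called higher and none lower. C11orf87 (5.70), PTX3 (5.29), SIPA1L2 (1.86), ASS1 (1.78), ALDH1L2 (1.70), ASNS (1.55), STC2 (1.39) and PSAT1 (0.85) were called there, while CHAC1, VWDE, MGAT5B and CDKN2A were not. Of the 2203 genes lower in the matched comparison 1214 (55.1%) had a value below 0 there, against 49.9% of all genes, 26 were called lower and 59 higher. For the 760 lower by at least 2-fold, 410 (53.9%) had a value below 0 there, 11 were called lower and 18 higher. None of the 12 lowest genes by the rule given for the largest differences was called lower. In the other direction, of the 250 genes higher in DOX day 12 against UT day 10, 40 were higher and 59 lower in the matched comparison.

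**Figure D4:**
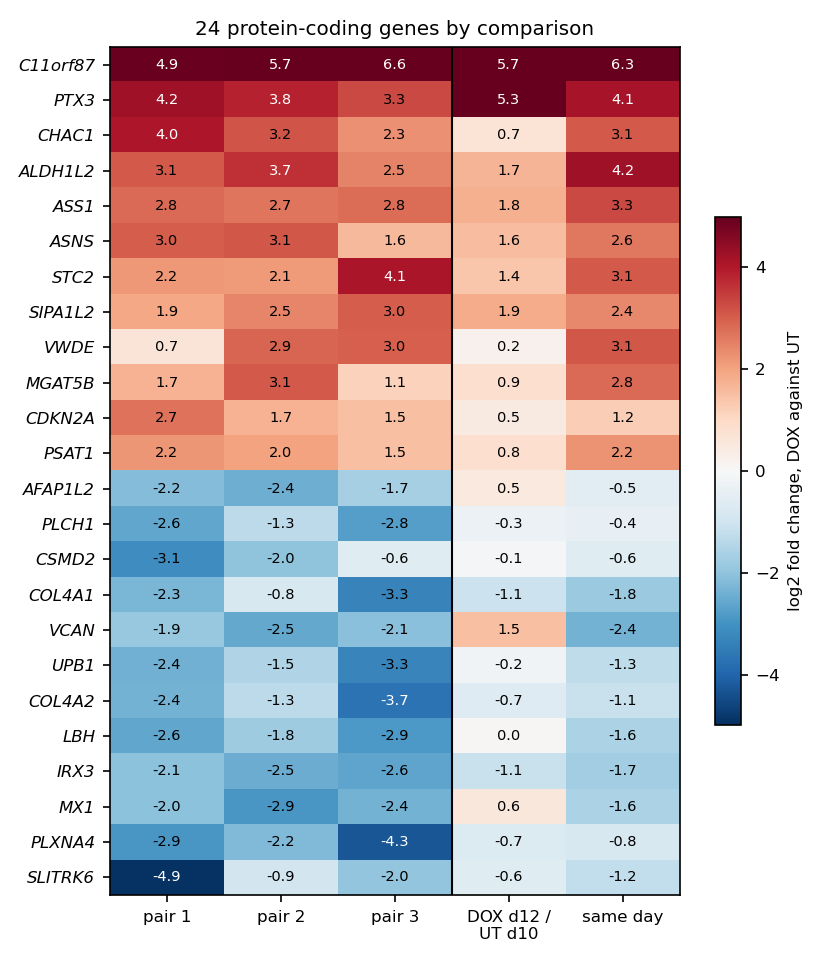
Log2 fold change of DOX against UT for the 12 highest and 12 lowest protein-coding genes with a mean log2 CPM of at least 1 and the same sign in all 3 pairs, in each pair, in DOX day 12 against UT day 10 (no shared libraries) and on the same day. Of the 12 highest, 8 were called in DOX day 12 against UT day 10; of the 12 lowest, none was.

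A difference that depended on the pair was found for 712 genes (3.54%). The count was 129 without UT day 12 replicate 2 or DOX day 14 replicate 1, 269 without UT day 12 replicate 1 and 391 without DOX day 16 replicate 2. The 5 genes with the largest shortfall in pair 3 were CBS, LOX, DEFA3, DEFA4 and CCL22, and the 5 with the largest excess were CBSL, NPIPA5, MT2A, GPAT3 and MYH7B. CBS and CBSL are near-identical genes for cystathionine beta-synthase, and reads can be divided between them in either way. CBS was at 46.7, 43.2, 49.5 and 50.5 CPM in the DOX libraries of pairs 1 and 2 and at 0.752 and 4.57 CPM in pair 3, where CBSL was at 59.1 and 57.3 CPM. In UT day 16 the reverse held, with CBS at 22.4 and 23.7 and CBSL at 2.08 and 1.08 CPM. LOX, a collagen cross-linker, was at 1.11 and 0.473 CPM in DOX day 20 and at 1.64 and 17.2 CPM in UT day 16, the higher value in replicate 2, and without DOX day 20 replicate 2 its adjusted p was 0.052. MT2A, a metallothionein that binds zinc, was at 4.44 and 3.37 CPM in DOX against 20.0 and 30.1 in UT in pair 1 and at 17.7 and 9.29 against 3.99 and 4.95 CPM in pair 3. Its direction thus changed between pairs, from -2.68 to 1.60. GPAT3, a lipid synthesis enzyme, was lower in pairs 1 and 2 (-2.02 and -1.63) and at 0.09 in pair 3. Across all 3 pairs with the same direction, 393 genes (1.95%) were called in each pair, 168 (0.835%) higher and 225 (1.12%) lower.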

How the data were processed

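Poly(A) RNA of 22 libraries was sequenced, per the labels' protocols. The deposited table holds the authors' estimated counts per gene from Salmon, and the submitters' processing notes name Trim Galore 0.6.5, STAR, Salmon and hg38. Other versions and settings are not given in the sources used here. Expected (estimated) counts as deposited were rounded to whole numbers, and 88.3% of the values were whole beforehand (tolerance 0.0005). Of 60240 genes, 20115 passed edgeR's filterByExpr (minimum count 10, 11 groups). All 22 columns were used, and library totals ran from 24730517 to 53508590. Of the gene IDs, 58020 matched GENCODE 29, from which coordinates were taken.

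Libraries were scaled by TMM and tested with edgeR 4.0.16 (quasi-likelihood, R 4.3.3) with Benjamini-Hochberg adjustment over all genes tested. The averaged difference came from a fit of pair and treatment on 12 libraries. Single pairs, their variation, DOX day 12 against UT day 10 and the course classes came from 1 fit with a coefficient per group on all 22 libraries. The same-day contrast had the day as a block. Log2 fold changes are DOX minus UT, and SEs are from the F statistics. Motifs were searched in RefSeq promoters of GRCh38.p14.

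Named genes were MYC, the 12 highest and 12 lowest called protein-coding genes with a mean log2 CPM of at least 1 and the same sign in all 3 pairs, 3 called members and the most abundant member of each list, 4 of each direction among genes uncalled along the course, and 5 of each direction among those that varied between pairs (mean log2 CPM of at least 3). The remaining list members named were chosen after their values were seen. The pairs, members and lists were chosen with earlier results of these data known. Alternatives used DESeq2 1.42.0 and limma-voom (limma 3.58.1), other scalings, filters and pairings, and left out single libraries. The fits were tested on simulated data.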

Additional observations from a re-analysis of the deposited data

Results flagged for a closer look

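The difference between DOX and UT depended on the pair for 712 genes by an F test across the 3 pairs (edgeR quasi-likelihood test, Benjamini-Hochberg adjusted p under 0.05). The values that follow are the log2 fold change in pair 3 minus the mean of pairs 1 and 2. It was -1.45 for ASNS, -4.75 for CBS and 4.41 for CBSL, the last of these on reads that the near-identical copies can exchange. The CBSL test was lost in most fits that left out a single library. Among matrix genes and chemokines it was -4.48 for LOX, -2.65 for CCL22 and 1.18 for CXCL8. The defensins DEFA3 and DEFA4, neighbouring granule genes, had -3.59 and -3.22. NPIPA5, of a duplicated family, had 3.06, MT2A 2.33, GPAT3 1.91 and MYH7B 1.57.

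Granulocyte and dendritic genes that were flagged for the same reason were MS4A3 (-0.206), PRTN3 (-0.813), CPA3 (-0.366), PRG2 (-0.678), CLEC10A (-1.45) and CD74 (-0.76). A value near 0 here means that pairs 1 and 2 differed from each other while their mean lay near pair 3, as for HK3 (-0.0948), SELP (-0.116) and BHLHE40 (0.0682). The remaining genes were CCNA2 (-0.514), TP53INP1 (0.765), GADD45A (0.494), CDH5 (1.36) and IFITM3 (-1.30). Every group held 2 libraries, too few to look for single libraries far from the rest within a group.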

How the results depend on the processing

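Of 4569 genes called in the averaged comparison, the count was 3332 to 4671 with single libraries left out (1652 to 2469 higher, 1648 to 2260 lower). It was 2138 without pair 1 (984 higher, 1154 lower), 2483 without pair 2 (1179 higher, 1304 lower) and 439 against a 1.5-fold change (123 higher, 316 lower). On the same day it was 6874, with 3714 higher. With library sizes alone 1059 were higher when matched, and on the same day 7820 higher and 828 lower. Leaving out single libraries gave 1249 to 2218 calls in pair 1, 815 to 1461 in pair 2, 639 to 1180 in pair 3, 129 to 849 for variation among pairs and 79 to 152 for DOX day 12 against UT day 10. Without the filter on low counts the last contrast gave 585 and variation 1553. Limma-voom gave 5411 in pair 1, 3582 in pair 2, 618 for DOX day 12 against UT day 10 and 1474 for variation, and DESeq2 gave 2464 in pair 3, 678 and 2111. The cause of these differences was not tested.

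Replicate numbers shared between groups were not used to pair the libraries in the main fits. The deviations of same-numbered libraries from their group means correlated at 0.026, 0.195 and 0.069 in the 3 pairs. Whether same-numbered libraries belong together was not tested. With a replicate block pairs 1 to 3 gave 4039, 2642 and 1916 calls, against 3473, 2183 and 1413 without it. In that fit 1209 genes varied among pairs, and no other count of calls moved by over 1.5 times.

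The log2 fold change changed sign under other pairings. With a 2-day lag throughout it was -0.135 for SLC43A3, -0.0226 for TOP2A, 0.216 for GADD45A, 0.527 for HBG2 and 0.157 for TAL1. With DOX day 18 in place of day 20 it was -0.0525 for SLC43A3, 0.118 for GAPDH, 0.134 for GADD45A, 0.245 for HBG2, 0.0616 for PRTN3 and 0.0245 for TAL1. On the same day it was -0.0768 for ATF4, -0.437 for SLC43A3, 0.168 for SLC2A3, 0.122 for GAPDH, -0.548 for MT-ATP8, -0.451 for MT-ND6, -0.569 for MT-ATP6 and -0.607 for TOP2A. It was 0.0639 for TP53INP1, 0.279 for GADD45A, 1.59 for HBG2, 0.46 for GP6, 0.943 for PPBP, 0.96 for SELP, 0.169 for CD34 and 0.588 for TAL1. It was 0.542 for KDR, 0.944 for TEK, 0.375 for CDH5, 0.321 for SPARC, 0.417 for MYCN and 0.131 for MAX. Without pair 1 GADD45A was at 0.175, without pair 2 PRTN3 was at 0.149, PRG2 at 0.059 and IFITM3 at -0.231, and without pair 3 PRTN3 was at 0.235. PRTN3, at -0.0434 with all libraries, ranged from -0.226 to 0.0418 when single libraries were left out.

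The main limits are the confounding of treatment with 2 to 4 more days in culture, pairs that were chosen on these data, 2 libraries per group and a bulk mixture of cell types. Genes with few counts, such as CD3D, are known with little precision.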
